A study of Mus musculus with 2 samples.

Results

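The genes described here are 3 water channels and 3 ion transport proteins of the cornea: Aqp1, Aqp3, Aqp5, Atp1b1, Slc4a4 and Slc4a11. They were taken by name from a single-cell RNA-seq count table of mouse cornea, and all 6 were among its 20198 genes. One library came from 4 unwounded mice (UW). The other came from 4 mice collected 24 h after the central epithelium, marked with a 2.5 mm trephine, had been scraped off with a rotating brush (W). The mice were male, 6 to 8 weeks old at purchase and without a stated genotype or strain, and the corneas of each condition were pooled, separated with dispase into epithelium and remaining tissue, and dissociated with trypsin and collagenase respectively. The UW library held 16450 cells with a median of 22014 UMIs (unique molecular identifiers, each standing for 1 captured transcript), and the W library 12417 cells with a median of 20290. Of the W barcodes, 0.419% (52) also occurred in UW. Because each condition was 1 pooled library, no difference between UW and W could be tested, and every interval below covers counting error only.

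Aquaporins are membrane pores for water, and some members, such as Aqp3, also pass glycerol. The cornea stays clear because its stroma is kept partly dehydrated: the endothelium on its inner face moves ions, chiefly sodium and bicarbonate, toward the aqueous humour, and water follows. Na+/K+-ATPase drives this transport, and it is built from a catalytic alpha subunit and a beta subunit such as Atp1b1. Slc4a4 is a sodium bicarbonate cotransporter that loads bicarbonate into the cell, and Slc4a11 is a membrane transporter of water, protons and borate whose loss causes corneal endothelial dystrophy. Aqp5 is known from the corneal epithelium, Aqp3 from the epithelium of conjunctiva, limbus and cornea, and Aqp1 from keratocytes and endothelium.

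The genes lie apart in the genome, except that Aqp5 has other aquaporin genes beside it. On build GRCm38, with GENCODE M21 coordinates, Aqp1 lies at chr6:55336432-55348555 on the plus strand, Aqp3 at chr4:41092722-41098183 on the minus strand and Aqp5 at chr15:99590782-99594829 on the plus strand. Atp1b1 lies at chr1:164437109-164458355 and Slc4a11 at chr2:130684113-130697519, both on the minus strand, and Slc4a4 at chr5:88886818-89239653 on the plus strand. Aqp2 ends 6234 bases before Aqp5 on the same strand, and Aqp6 begins 6570 bases after it. The 150 bases before the RefSeq start (GRCm38.p6, 5′ to 3′ on the gene's strand) are shown for the 3 water channels, because 1 of them was read in stromal cells and the other 2 in epithelium. They span chr6:55336149-55336298 for Aqp1, chr4:41098184-41098333 for Aqp3 and chr15:99590878-99591027 for Aqp5, and the RefSeq starts of Aqp1 and Aqp5 differ from those of GENCODE. Capitals mark any of 4 motifs, searched on both strands: the GC box GGGCGG, the CACCC box, the TATA box TATAAA and the AP-1 site TGANTCA.
Aqp1: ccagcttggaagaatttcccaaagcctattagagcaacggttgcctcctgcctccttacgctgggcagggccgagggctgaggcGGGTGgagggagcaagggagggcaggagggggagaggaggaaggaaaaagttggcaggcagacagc
Aqp3: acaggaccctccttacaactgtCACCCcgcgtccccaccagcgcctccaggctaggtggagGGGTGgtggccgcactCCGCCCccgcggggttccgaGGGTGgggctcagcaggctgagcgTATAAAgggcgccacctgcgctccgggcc
Aqp5: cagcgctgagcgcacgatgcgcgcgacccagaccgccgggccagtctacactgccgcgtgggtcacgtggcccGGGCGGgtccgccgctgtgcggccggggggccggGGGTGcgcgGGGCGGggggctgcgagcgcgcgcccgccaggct
The Aqp1 window held 1 CACCC box. The Aqp3 window held 3 CACCC boxes, 1 GC box and a TATA box that began 29 bases before the start. The Aqp5 window held 2 GC boxes and 1 CACCC box, and 82% of its bases were G or C. None of the marked motifs overlapped another. Over 32851 promoter windows of this length, 37.4% held a CACCC box, 28.6% a GC box, 7.57% a TATA box and 4.24% an AP-1 site, so CACCC and GC boxes are common letters and the TATA box of Aqp3 is the rarer one.

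Levels were summed over the cells of each of the 17 deposited clusters and given as UMIs of a gene per 1000000 UMIs of those cells (CPM). The clusters carried no names, so they are called here by the marker genes they held. Cluster 0 was keratocyte-like, led by Kera, and cluster 10 was a stroma-like cluster led by Penk and Myoc. Among the epithelial clusters, 3 was basal-like, 11 held S phase cells, 8 mitotic cells, 9 was limbal-like and led by Wfdc18, 1 and 4 were suprabasal-like, 2, 6 and 7 superficial-like, and 5 conjunctiva-like and led by Serpinb3a with Krt4. Clusters 14 and 15 were macrophage-like and 16 was T cell-like. Cluster 13 was neutrophil-like, with all 4 neutrophil markers at 10 CPM or more. It was led by Ccl3 and had a median of only 2510 UMIs. Cluster 17 was left unnamed and was led by Cxcl9. The 12 clusters with at least 20 cells in both libraries were compared between libraries, and clusters 13 to 17 were read in W alone.

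**Figure D1:**
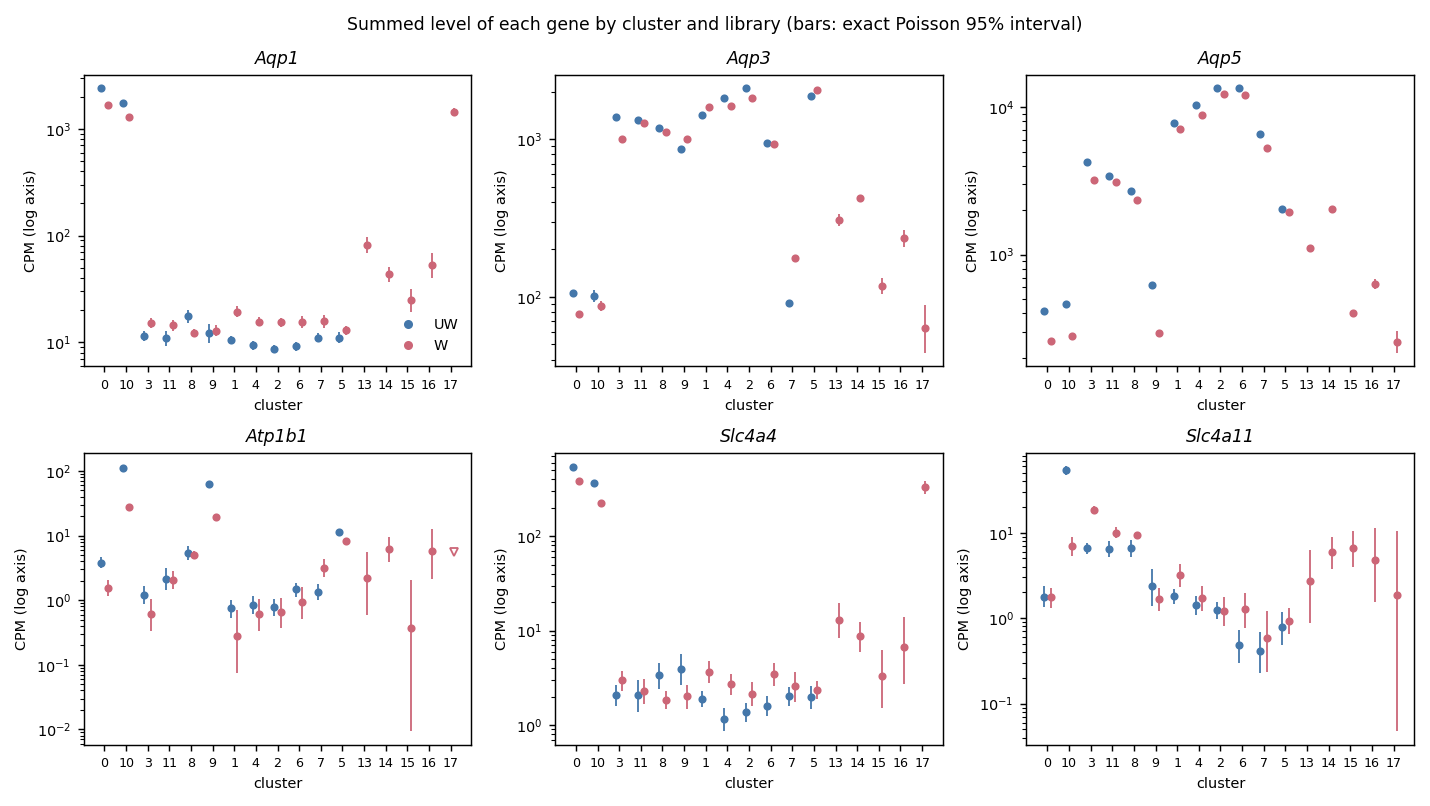
Level of each gene (CPM, log axis) by cluster, stroma first, then epithelium, then the clusters read in W alone (13 to 17); blue points are UW, red points W, bars exact Poisson 95% intervals, and the open triangle is the limit that a count of 0 allows (3 counts). Aqp1 and Slc4a4 are high in clusters 0, 10 and 17, Aqp3 and Aqp5 in epithelium, and Atp1b1 and Slc4a11 peak in cluster 10 of UW at 110 and 53.9 CPM.

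Aqp5 was higher toward the surface of the epithelium in both libraries. In UW its level was 4272 CPM in the basal-like cluster 3, 7770 in cluster 1, 10326 in cluster 4 and 13489 in the superficial-like cluster 2. In W the same clusters read 3217, 7134, 8884 and 12192 CPM. Cluster 6 lay just under cluster 2, at 13386 and 12055 CPM. In the outermost cluster 7, which is led by Lce3a, a cornified envelope gene, the level was lower again, at 6618 and 5244 CPM. Dividing cells lay below cluster 3, with 3404 and 3102 CPM in cluster 11 and 2707 and 2341 in cluster 8. Every pair of neighbours in the UW order of Aqp5 had counting intervals that did not overlap.

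Aqp5 was lower in W in all 10 epithelial clusters, and by little in most. The log2 ratio of W over UW ran from -0.08 in cluster 5 to -0.41 in cluster 3, apart from cluster 9. It was -0.15 in cluster 2 (95% interval -0.15 to -0.14), -0.34 in cluster 7 (-0.35 to -0.32) and -0.41 in cluster 3 (-0.42 to -0.40). In clusters 1, 2, 4, 5 and 6 Aqp5 stood near the middle of all genes, 46.9% to 55.9% of which had a lower ratio. In the remaining clusters that share ran from 5.89% (cluster 9) to 42.2% (cluster 11). Over the summed epithelium the level was 8416 CPM in UW and 4815 in W, a log2 ratio of -0.81 (-0.81 to -0.80). The make-up of the sum differed too: clusters 1, 2, 4, 6 and 7, where Aqp5 is high, held 8944 of the 13501 epithelial cells in UW and 3571 of 8507 in W. With the UW shares of the clusters held fixed the log2 ratio was -0.19, from 7771 to 6814 CPM.

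The limbal-like cluster 9 was the place where Aqp5 was low. Its leading gene Wfdc18 was itself 57.1 CPM in UW and 580 in W. Of other markers of quiescent limbal epithelium, Gpha2 was 1945 and 1412, Ifitm3 981 and 2215, and Cd63 174 and 179. Krt15, a keratin of limbal and basal epithelium, was 3740 and 5959. Aqp5 read 625 CPM in UW and 296 in W, a log2 ratio of -1.08 (-1.13 to -1.02), which was within 2-fold at -0.94 with TMM and -0.95 with DESeq2 size factors. Stromal cells, which are not epithelial, read 414 and 260 CPM of Aqp5 in cluster 0 and 463 and 283 in cluster 10, whose W interval (271 to 294) overlapped that of cluster 9 (290 to 303). Thinned to 5000 UMIs a cell, 86.8% of cluster 9 cells in UW had an Aqp5 UMI against 87.0% in cluster 0, and in W 69.3% against 70.9%. Cluster 10 stood higher, at 89.9% and 76.3%. The median UMIs per cell were 13944 and 11853 in UW and 24009 and 17588 in W. The share of cluster 9 cells with Aqp5 was thus no higher than in stroma, and its summed level was above that of both stromal clusters in UW but not apart from cluster 10 in W. The highest cells set the sums of clusters 9 and 0 apart: in UW the median cell of cluster 9 held 404 CPM against 400 in cluster 0, and the 90th percentile 1072 against 704. In W the 90th percentiles were 465 and 458. In the conjunctiva-like cluster 5 the sum was 2037 CPM in UW and 1933 in W, but the cells were uneven: in UW the median cell had 683 CPM and the 90th percentile 5391.

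Aqp3 was high in every epithelial cluster except the outermost, cluster 7. In UW it was highest in cluster 2 at 2100 CPM, followed by 1865 in cluster 5, 1832 in cluster 4, 1414 in cluster 1 and 1380 in cluster 3. The limbal-like cluster 9 held 869 CPM and the superficial-like cluster 6 held 947. In cluster 7 the level was 92.2 CPM, against 106 in stromal cluster 0, and 33.4% of its thinned cells had a UMI against 40.6% in cluster 0, so Aqp3 in the outermost cells of UW was no higher than in stroma. From cluster 2 to cluster 7 of UW, Aqp3 went from 2100 to 92.2 CPM while Aqp5 went from 13489 to 6618.

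Between the libraries Aqp3 moved in both directions. Over the summed epithelium it was 1396 CPM in UW and 1334 in W, a log2 ratio of -0.07 (-0.07 to -0.06), which became 0.027 when mitochondrial, ribosomal protein and haemoglobin genes were taken out of the total. It was lower in W in 6 of the 10 epithelial clusters and higher in 4. In cluster 6, counted as lower, the log2 ratio was -0.020 and its counting interval held 0 (-0.048 to 0.008). Over the 6 lower clusters, 27.2% (cluster 3) to 54.6% (cluster 6) of all genes had a lower ratio than Aqp3. Over the 4 higher ones the share was 63.5% (cluster 1) to 83.5% (cluster 7). The basal-like cluster 3 went from 1380 to 1007 CPM, a log2 ratio of -0.45 (-0.48 to -0.43). Cluster 9 went the other way, from 869 to 1005 CPM, a log2 ratio of 0.21 (0.17 to 0.25). Cluster 7 went from 92.2 to 176 CPM, a log2 ratio of 0.93 (0.85 to 1.01), and 0.55 with TMM scaling. At equal depth 47.8% of its W cells had an Aqp3 UMI while cluster 0 of W stood at 30.8%.

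**Figure D2:**
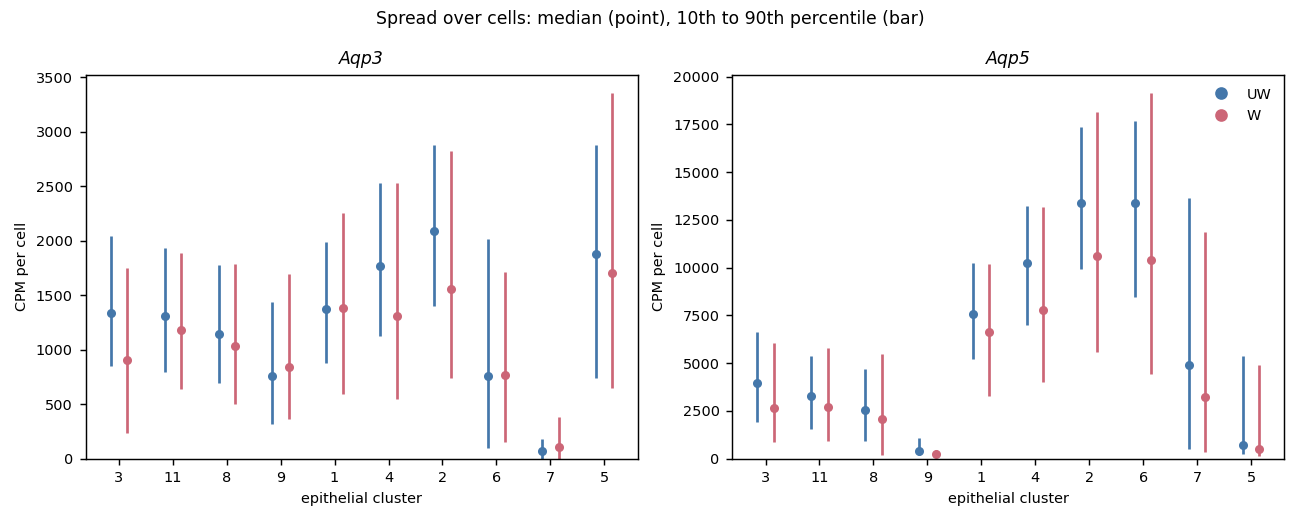
CPM per cell of Aqp3 and Aqp5 in the 10 epithelial clusters, with points at the median cell and bars from the 10th to the 90th percentile, UW blue and W red. For both genes the bars reach lower in W in clusters 1, 2, 3, 4, 5, 8 and 11, as for Aqp3 in cluster 3, where the 10th percentile was 848 in UW and 234 in W.

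In 7 of the 10 epithelial clusters (1, 2, 3, 4, 5, 8 and 11) the 10th percentile of both Aqp3 and Aqp5 was lower in W than in UW, and in the other 3 that of Aqp5 alone. In cluster 3 the 10th percentile of Aqp3 was 848 CPM per cell in UW and 234 in W, while the 90th was 2046 and 1754. The share of thinned cells with an Aqp3 UMI was 99.7% in UW and 92.5% in W, although the W cells of this cluster were deeper, with a median of 23906 UMIs against 18682. In mitotic cluster 8 the 10th percentile of Aqp5 was 932 CPM in UW and 177 in W.

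The basal-like cells of W that held little Aqp3 also differed in other genes, a split chosen after its values were seen. Cells of cluster 3 with at least 5000 UMIs were divided into tertiles by Aqp3, whose level ran from 326 to 1642 CPM in W and over a narrower range, from 940 to 1908, in UW. In W, Aqp5 was 1977 CPM in the lowest tertile (289 cells) and 4098 in the highest (288 cells), and Krt12, the cornea-type keratin, was 7136 and 15458. Krt5, a keratin of basal epithelium, was 4316 and 6725 CPM. Atp1b3, another beta subunit of the sodium pump, was 182 and 339 CPM. Itgb1, an integrin of basal epithelium, ran the other way, at 269 and 143 CPM. In the narrower tertiles of UW, Aqp5 read 4223 and 4350 CPM, Krt12 29063 and 29168, Krt5 6840 and 7056, Atp1b3 603 and 675, and Itgb1 175 and 199. Depth also differed between the W tertiles, with a median of 19406 UMIs in the lowest and 28738 in the highest, against 19194 and 18145 in UW, and its part in this pattern was not tested.

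Aqp1 was a stromal gene in these libraries. It was 2408 CPM in cluster 0 of UW and 1685 in W, a log2 ratio of -0.52 (-0.53 to -0.50). In cluster 10 it was 1740 and 1299 CPM, a log2 ratio of -0.42 (-0.46 to -0.38), and -0.37 without 9 UW cells described below. The median keratocyte-like cell held 2343 CPM in UW and 1689 in W, and nearly every cell had the gene: 100% (99.98% and 99.72% after thinning). The median over all genes in cluster 0 was -0.13, and 20.7% of them had a lower ratio than Aqp1.

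Slc4a4, the sodium bicarbonate cotransporter, was read in the same cells as Aqp1. It was 545 CPM in cluster 0 of UW and 385 in W, a log2 ratio of -0.50 (-0.54 to -0.47). In cluster 10 it was 363 and 224 CPM, a log2 ratio of -0.69 (-0.79 to -0.60), and 8.92% of genes had a lower ratio there. The 9 UW cells rich in Car3 described below held 16.7% of its UW UMIs, and without them the log2 ratio was -0.49. Thinned, 86.7% of keratocyte-like cells had a UMI in UW and 78.4% in W. Over the 24 levels of the 12 clusters in both libraries, the log2 levels of Slc4a4 and Aqp1 gave a Pearson r of 0.997, with stroma and epithelium far apart and nothing between. None of the 4 members that passed the filter in cluster 0 reached 2-fold, and there 4.23% of 8483 genes were at least 2-fold higher in W and 5.27% lower.

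In the epithelium, Aqp1 and Slc4a4 had a ratio to stromal matrix genes near that of stromal cells. Aqp1 was 8.65 to 17.4 CPM in the epithelial clusters of UW and 12.2 to 19.3 in W, and higher in W in 9 of 10. Kera, Lum and Dcn, stromal matrix genes, were read in the same clusters. Multiplying their level by the Aqp1 share of stromal cells gave 7.63 to 18.6 CPM in UW and 11.9 to 20.4 in W. The measured Aqp1 level was 0.94 to 1.24 times that figure. For Slc4a4 the epithelial range was 1.16 to 3.94 CPM in UW and 1.85 to 3.69 in W, or 0.67 to 1.45 times the figure from the same stromal genes. The source of these reads was not tested.

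Cluster 17 of W, with 29 cells, held Aqp1 at 1446 CPM (1346 to 1552) and Slc4a4 at 330 (283 to 383). All 29 cells had Aqp1, with a median of 25 UMIs against 30 in cluster 0 of W. Kera, Lum and Dcn together stood at 28405 CPM there, and at the ratio of stromal cells they would bring 1492 CPM of Aqp1 and 327 of Slc4a4. Whether the cells of cluster 17 were themselves stromal was not tested. The same calculation with epithelial keratins held for the other water channels outside epithelium: Aqp3 was 0.71 to 1.25 times and Aqp5 0.69 to 1.03 times what the level of Krt12, Krt5 and Krt14 would bring. Aqp5 reached 2025 CPM in macrophage-like cluster 14, whose median cell held 4 UMIs of it and whose highest held 669.

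**Figure D3:**
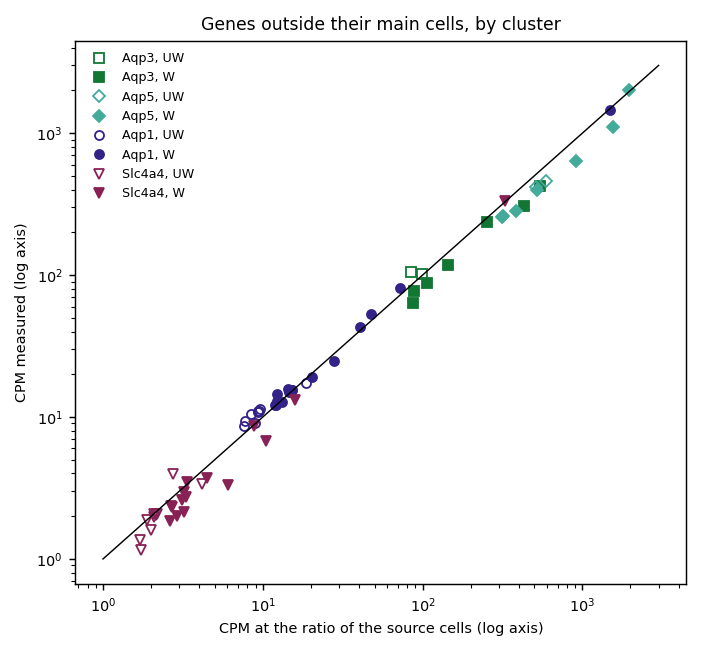
Measured CPM against the CPM that 1 source would bring (both log axes), each point a cluster in 1 library outside the gene's main cells: Aqp3 and Aqp5 scaled from Krt12, Krt5 and Krt14, and Aqp1 and Slc4a4 from Kera, Lum and Dcn; open symbols are UW, filled symbols W, and the line marks equality. The points lie close to the line over 3 orders of magnitude, between 0.55 and 1.45 times it.

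Atp1b1, the beta subunit of the sodium pump, was scarce in most of the epithelium and peaked in cluster 9 and cluster 10. The limbal-like cluster 9, whose leading gene differed between libraries as given above, held 63.0 CPM in UW (57.5 to 68.9) and 19.3 in W (17.6 to 21.1), a log2 ratio of -1.71 (-1.89 to -1.52). At equal depth 26.8% of its cells had a UMI in UW and 9.82% in W. The conjunctiva-like cluster 5 came next among epithelia, with 11.5 CPM in UW and 8.18 in W, and mitotic cluster 8 held 5.39 and 5.09. The other 7 epithelial clusters lay between 0.748 and 2.15 CPM in UW and between 0.278 and 3.18 in W. Over the summed epithelium Atp1b1 was 3.5 CPM in UW and 4.87 in W, a log2 ratio of 0.48 (0.36 to 0.59), while the ratio was below 0 in 9 of the 10 clusters. Only clusters 5 and 9 of these passed the filter, and in 6 of the 9 (1, 2, 4, 6, 8 and 11) the counting interval held 0. With the UW shares of the clusters held, the ratio turned to -0.87. Cluster 9 had made up 521 of the UW cells and 956 of the W cells, and without it the log2 ratio of the sum was 0.60.

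In cluster 9, cells with an Atp1b1 UMI were compared with those without one, a split chosen after its values were seen. In UW, Gpha2 was 2230 CPM in the 268 cells with Atp1b1 and 1634 in the 237 without. Krt15 ran the other way, at 3401 and 4137 CPM. Krt12 was 3930 and 6357 CPM, and Aqp3 783 and 964. In W, Gpha2 was 1426 and 1406 CPM and Krt12 1463 and 1326, close to each other, while Krt15 was 5332 and 6235 and Aqp3 848 and 1075. In cluster 9, 6.65% of 8004 genes were at least 2-fold higher in W and 7.01% lower. Atp1b1 and Aqp5 were lower there, the latter beside the lower stromal level given above.

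Slc4a11 and Atp1b1 were lower in cluster 10 of W, and both differences rested on 9 UW cells. Slc4a11 was 53.9 CPM in UW (48.1 to 60.3) and 6.97 in W (5.29 to 9.01), a log2 ratio of -2.95 (-3.38 to -2.54). Atp1b1 was 110 CPM in UW and 27.3 in W, a log2 ratio of -2.02 (-2.24 to -1.79). In this cluster 3.59% of 8653 genes were at least 2-fold higher in W and 3.44% lower, and 0.185% had a lower ratio than Slc4a11. In UW, 9 of the 565 cells held at least 50 UMIs of Car3, a carbonic anhydrase; their lowest count was 115, and the next cell of either library had 16. Those cells carried 91.2% of the Slc4a11 UMIs and 79.4% of the Atp1b1 UMIs of the UW cluster, and none of the 632 W cells passed. Without them the log2 ratio was 0.50 for Slc4a11 and 0.20 for Atp1b1. This cell group, and the genes used below to describe it, were chosen after values were seen.

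The 9 cells held the markers of corneal endothelium, the layer that carries the fluid pump. The study names a corneal endothelial type and reports more cells in each condition than were read here. The 9 cells are therefore not a count of the endothelium in these corneas. Each had UMIs of Col8a1 and Col8a2, collagens of Descemet's membrane, and of Cdh2, Alcam and Ncam1. Col8a1 was 1927 CPM against 235 in the other UW cells of cluster 10, Col8a2 2032 against 652, and Cdh2 563 against 17.7. Col4a3 and Col4a4, which also belong to Descemet's membrane, were 930 and 1277 CPM against 19.6 and 31.4. Kera, made by keratocytes, was 8.34 CPM against 2867, and Angptl7, which is high in the rest of the cluster, 41.7 against 7778. Dcn, also stromal, was 8928 against 45737 CPM. Of the blood vessel markers, Cdh5 was at 0 in all 9 cells, which allows up to 12.5 CPM (3 counts of their 239689 UMIs). Pecam1 had 5 UMIs in 3 cells, or 20.9 CPM against 0.731 in the other UW cells of the cluster.

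All 4 genes of endothelial transport were high in these cells. Their Atp1b1 counts ran from 31 to 94 UMIs with a median of 48, and their Slc4a11 counts from 3 to 55 with a median of 29. Summed, Atp1b1 was 2086 CPM (1907 to 2277) against 23.8 in the other UW cells of the cluster, and Slc4a11 1172 (1039 to 1318) against 4.93. Aqp1 was 3217 CPM against 1675 and Slc4a4 1444 against 315. Aqp3 and Aqp5 were 37.6 and 280 CPM, under the 104 and 471 of the other cells. Atp1b3 was 346 CPM against 126. Among other carbonic anhydrases, Car9 was 263 CPM against 0.548 and Car14 at 154 against 2.19.

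**Figure D4:**
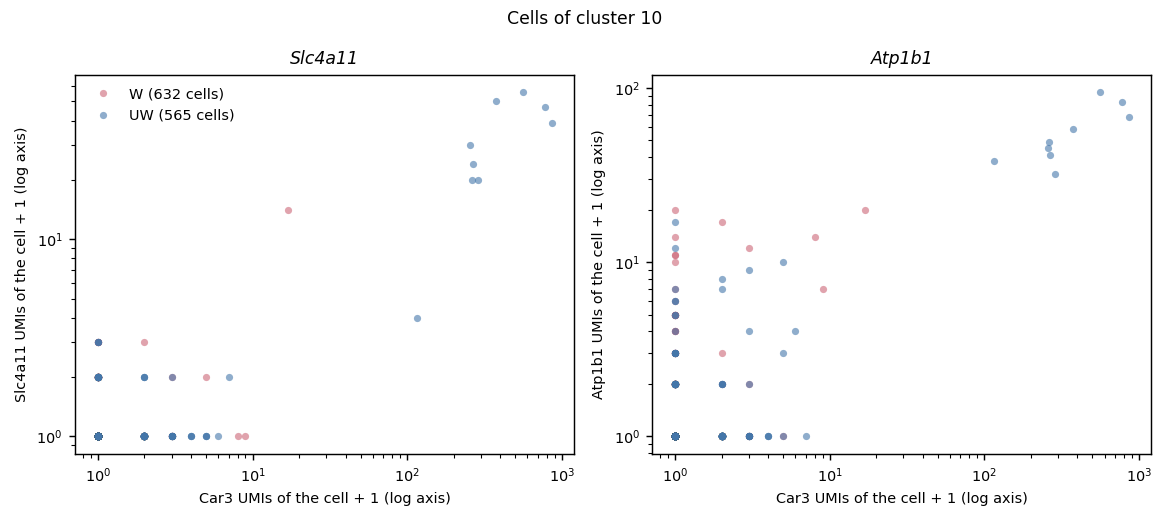
UMIs of Slc4a11 (left) and Atp1b1 (right) against UMIs of Car3 in each cell of cluster 10, 1 added to every count, both axes log; blue cells are UW (565), red cells W (632). The 9 UW cells at the right, with at least 115 Car3 UMIs, stand apart, and 1 W cell with 16 Car3 UMIs held 13 of Slc4a11 and 19 of Atp1b1.

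One W cell of cluster 10 held 16 UMIs of Car3, 13 of Slc4a11 and 19 of Atp1b1 among 28362, but also 288 of Myoc, of which the 9 UW cells had 1 in all. By the number of the 5 endothelial markers detected, in cells of at least 5000 UMIs, Slc4a11 was 445 CPM in the 43 UW cells with all 5 and at most 11.02 CPM in every UW class with fewer. The 9 cells held 281 of the 288 Slc4a11 UMIs of that class, and the other 34 cells stood at 17.2 CPM. Those 34 cells were rich in Myoc, at 2387 CPM, and so were the 29 W cells with all 5 markers, at 5276. Atp1b1 was 167 CPM in the former and 214 in the latter, and Slc4a11 was 31.1 in the W cells, where 13 of its 20 UMIs lay in the 1 cell named above. At equal depth, Atp1b1 and Slc4a11 were found together in 1.89% of UW cells of cluster 10, where independence would give 0.273%, and in 0.409% of W cells against 0.144%. Car3 itself was read at 4.74 to 10.6 CPM in the epithelial clusters of UW and at 0.431 to 0.794 in W.

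In the epithelium, Slc4a11 was highest in the basal-like and dividing clusters, and it was higher in W in each of these 3. Cluster 3 held 6.56 CPM in UW (5.71 to 7.50) and 18.5 in W (16.7 to 20.3), a log2 ratio of 1.49 (1.25 to 1.74). At equal depth 3.35% of its cells had a UMI in UW and 8.54% in W, while in superficial-like cluster 7 the shares were 0.229% and 0.270%. The S phase cluster 11 went from 6.46 to 10.05 CPM and mitotic cluster 8 from 6.57 to 9.34. Clusters 5, 6 and 7 lay between 0.413 and 0.780 CPM in UW and 0.586 and 1.28 in W. Over the summed epithelium Slc4a11 read 2.09 and 5.39 CPM, under the filter, a log2 ratio of 1.37 (1.23 to 1.5) that was 0.97 with the UW shares of the clusters held. At the ratio of Slc4a11 to Car3 in the 9 endothelial-like cells, free RNA would bring 0.61 CPM to cluster 3 of UW. In cluster 3, 10.4% of 7719 genes were at least 2-fold higher in W and 9.6% lower, and 94.3% had a lower ratio than Slc4a11.

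Cells of cluster 3 with a Slc4a11 UMI were set beside those without, again after values were seen. In W, Lamb3, a laminin chain of epithelial basement membrane, was 261 CPM in the 294 cells with Slc4a11 and 167 in the 571 without, and Itgb4, an integrin of the hemidesmosome, 412 and 312. Aqp3 was 1022 and 997 CPM and Aqp5 3269 and 3184, close to each other. In UW Lamb3 was 30.2 CPM in the 198 cells with Slc4a11 and 26.1 in the 1510 without, and Itgb4 141 and 133. The W cells with Slc4a11 were deeper, with a median of 29313 UMIs against 22038, and in UW the medians were 19198 and 18812. The part of depth in this difference was not tested.

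Over the 12 clusters, 44 of the 72 combinations of member and cluster passed the filter of 20 counts over both libraries and 10 CPM in either. Only Slc4a11 in cluster 3 was at least 2-fold higher in W. At least 2-fold lower were Slc4a11 and Atp1b1 in cluster 10 and Atp1b1 and Aqp5 in cluster 9, where Aqp5 was within 2-fold with TMM or DESeq2 size factors. Among all genes in these clusters, 7.46% of 87402 combinations were at least 2-fold higher in W and 8.24% lower. In the summed epithelium the 3 members that passed the filter, Aqp1, Aqp3 and Aqp5, stayed within 2-fold, where 12.5% of 7456 genes were at least 2-fold higher and 7.83% lower. With TMM and DESeq2 size factors Aqp5 passed 2-fold there, at log2 ratios of -1.02 and -1.04.

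**Figure D5:**
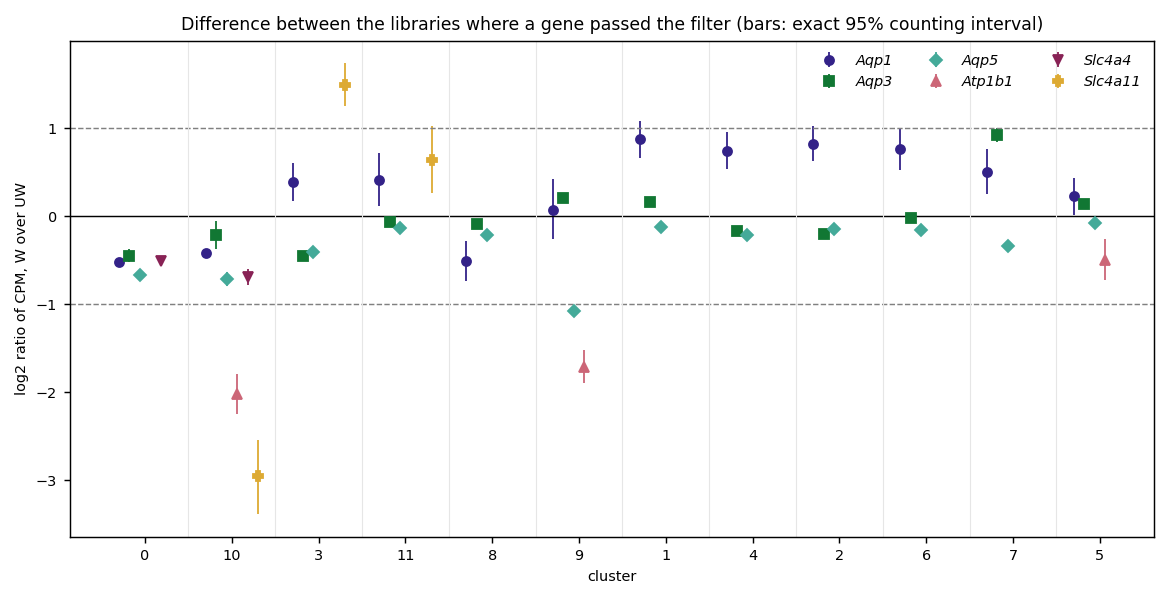
Log2 ratio of CPM, W over UW, for each member in each cluster where it passed the filter; bars are exact 95% counting intervals, dashed lines mark a 2-fold difference. Aqp3 and Aqp5 stay between -1 and 1 in epithelium except Aqp5 in cluster 9 at -1.08, and Slc4a11 lies at 1.49 in cluster 3 and -2.95 in cluster 10.

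The pattern of each member over the 24 levels was compared with that of 5303 genes with at least 50 CPM in 1 or more of them. Among these, the most like Aqp1 were Col5a2 (Pearson r = 0.999), Slc26a7 (0.999) and Lum. For Slc4a4 they were Col6a3 (0.998), Aqp1 (0.997) and Pantr1 (0.997). For Aqp3 they were Cdh1, the epithelial cadherin (r = 0.986), Pgap2 (0.981) and Krt5 (0.980). For Aqp5 they were Mal2, a protein of apical membrane transport (0.969), Gm45351 (0.951) and Mpzl3 (0.9504). For Atp1b1 they were Npnt, a matrix protein (0.869), Ccdc3 (0.835) and Rgcc (0.832), and for Slc4a11 Npy (0.952), Slc14a1, a urea transporter (0.795), and Phldb2 (0.787). Levels in 1 library share its free RNA and depth, so these values are descriptions. Npnt was 2520 CPM in the 9 endothelial-like cells and 9.32 in the other UW cells of cluster 10.

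Another beta subunit of the sodium pump, Atp1b3, was read both where Atp1b1 was scarce and in cluster 9, where Atp1b1 was highest among epithelial clusters. In the summed epithelium it was 292 CPM in UW and 282 in W, a log2 ratio of -0.05 (-0.06 to -0.04). It was 636 CPM in cluster 3 of UW and 262 in W, a log2 ratio of -1.28 (-1.32 to -1.24), and 553 and 480 in cluster 9. Atp1b2 was 7.36 and 2.77 CPM in cluster 10, under the filter. Of 5 pump subunits read besides Atp1b1, 2 passed the filter in the summed epithelium. Both stayed within 2-fold, with a median log2 ratio of 0.43 against 0.05 over all genes.

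The FXYD proteins, small regulators of the pump, were 7 in the table. In the summed epithelium 2 of the 3 that passed were at least 2-fold higher in W and 1 lower, where 12.5% of all genes were higher and 7.83% lower. Fxyd3 went from 392 to 936 CPM, a log2 ratio of 1.26 (1.25 to 1.26), and was higher in every epithelial cluster. Fxyd4, outside the naming rule and chosen after its values were seen, went from 33.0 to 3.80 CPM, a log2 ratio of -3.12 (-3.22 to -3.02). Fxyd5 went from 0.234 to 20.1 CPM, with 0.580 and 112 in cluster 3. Clusters 13 to 16 of W held 823 to 1527 CPM of Fxyd5, and the part of their free RNA in the epithelial level was not tested. In the W tertiles of cluster 3, Fxyd5 was 200 CPM in the cells lowest in Aqp3 and 57.8 in the highest. In stroma 4 passed in each cluster. In cluster 0, 2 were at least 2-fold higher and 1 lower, against 4.23% and 5.27% of all genes, and in cluster 10, 2 were higher and 0 lower, against 3.59% and 3.44%. The higher ones were Fxyd3 and Fxyd5 in both, at 25.3 and 65.1 CPM and at 2.85 and 21.1 CPM in cluster 0. Fxyd3 stood there and in cluster 10 at 1.05 to 1.14 times the level that the epithelial keratins would bring. The part of free RNA from clusters 13 to 16 in stromal Fxyd5 was not tested. Fxyd6 went from 301 to 148 CPM there, a log2 ratio of -1.02 that the TMM shift of 0.14 brings within 2-fold, and Fxyd1 from 63.1 to 34.1.

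Of the chloride and cation transport genes, 6 of 16 passed the filter in the summed epithelium, of which 2 were at least 2-fold lower in W, 1 higher and 3 within 2-fold, against 7.83% of all genes lower and 12.5% higher. Slc12a2, the sodium potassium chloride cotransporter that loads chloride for secretion, was 844 CPM in cluster 6 of UW and 187 in W, and 908 and 211 in cluster 7. In the summed epithelium it went from 364 to 70.4 CPM, a log2 ratio of -2.37 (-2.39 to -2.35), and it was lower in W in each epithelial cluster. Scnn1a, a subunit of the epithelial sodium channel, went from 58.0 to 13.3 CPM in cluster 2 and from 31.1 to 6.91 in the sum, a log2 ratio of -2.17 (-2.25 to -2.10). Kcnk1, a potassium channel chosen after its values were seen, went from 6.25 to 17.2 CPM in the sum but from 11.4 to 3.61 in cluster 10, a log2 ratio of -1.66, where it was the 1 of 6 lower (3.44% of all genes). The list median in the summed epithelium was -0.72, against 0.05 over all genes. In stroma the chloride channel Ano1, also chosen after its values were seen, went from 23.8 to 2.22 CPM in cluster 0, the 1 of 6 lower there (5.27% of all genes), and Slc12a2 was 96.0 and 96.0 in cluster 10.

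Among bicarbonate carriers of the Slc4 family, the 2 that passed in the summed epithelium stayed within 2-fold there (median 0.81). The anion exchanger Slc4a2 went from 11.96 to 23.5 CPM in the sum and from 16.1 to 34.5 in cluster 3, past 2-fold, while Slc4a7 went from 12.6 to 19.6 in the sum and from 40.8 to 37.9 in cluster 3. Of the carbonic anhydrases, which interconvert carbon dioxide and bicarbonate, 2 of the 3 tested in epithelium were at least 2-fold higher, against the same 12.5% of all genes. Car13 went from 7.57 to 37.1 CPM in the sum and from 44.6 to 89.2 in cluster 9. Car12 went from 1.70 to 12.8 in the sum but only from 42.5 to 52.5 in cluster 9, where it is concentrated. Car5b, a mitochondrial form, was 236 and 135 CPM in cluster 6. In cluster 10, Car3 and Car9 were the 2 of 4 lower (3.44% of all genes), and most of their UW counts lay in the 9 cells described above.

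Of the proton and lactate carriers, none of the 4 that passed in the summed epithelium reached 2-fold there (median -0.01). Bsg, the partner of the lactate carriers, was 340 and 399 CPM in the sum. Slc16a3, the lactate exporter of glycolytic cells, was under the filter in the sum but went from 0.153 to 27.5 CPM in cluster 3, and from 5.49 to 15.5 in cluster 0, the 1 of 6 at least 2-fold higher there (4.23% of all genes). It also stood at 168 CPM in cluster 13 and 142 in cluster 15 of W, and the part of their free RNA in the other levels was not tested. None of the 7 other aquaporins in the table passed the filter in the summed epithelium or in clusters 0 and 10. Aqp2, the neighbour of Aqp5, was 11.4 CPM in cluster 1 of UW and 8.49 in W and 0.352 and 0.401 in cluster 0. Aqp11 was 4.04 and 2.28 CPM in cluster 0. Aqp9, a glycerol and water channel of leukocytes, was 18.0 CPM in cluster 13 of W (33 UMIs) and 2.17 in cluster 14.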

How the data were processed

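Single-cell RNA-seq (10x Genomics 3′) of mouse cornea was taken from 2 pooled libraries, UW and W. Per the labels, the authors used Cell Ranger 3.1.0 and Seurat. The labels list build mm9 and the study's methods an mm10 reference, and coordinates here are GRCm38. The authors deposited raw UMI counts per cell and gene after their own cell filter, with their clusters, and the row totals of all 28867 cells equalled the UMI numbers in the table of cells. The study reports more cells in each condition than the 16450 and 12417 read here, and the cluster numbers have a gap. Counts were summed per cluster and library and divided by the total (CPM). Exact Poisson, Clopper-Pearson and conditional binomial 95% intervals (scipy 1.17.1) cover counting error only. Cells were not treated as replicates, and no p-value was computed. The study's methods describe telling the mice in a pool apart with Souporcell, and such assignments were not used here. Genes with at least 20 counts over both libraries and 10 CPM in either were compared, and a 2-fold difference was called. Shares of cells were thinned to 5000 UMIs, leaving out shallower cells (51 in UW and 11 in W of cluster 0, 81 and 20 of cluster 3, 16 and 6 of cluster 9, 19 and 15 of cluster 7). Cells the authors' caller marked as doublets (305 in UW, 164 in W) were kept and were left out in an alternative. TMM (edgeR 4.0.16) and DESeq2 1.42.0 size factors served as alternative scalings. The calculations were tested on simulated data. Named genes were the 6 members, up to 4 of the most abundant genes of each list, the 3 genes most like each member and cluster markers. The members and lists were chosen with earlier results of these data known. Some genes of the lists are not reported here.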

Additional observations from a re-analysis of the deposited data

Results flagged for a closer look

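Slc4a11 went in opposite directions in 2 clusters, with a log2 ratio of W over UW of 1.49 in basal-like cluster 3 and -2.95 in cluster 10. With 1 library per condition this difference between clusters was not tested, and in cluster 10 the value without the 9 cells rich in Car3 was 0.50. Aqp3 also differed in direction, at 0.93 in the outermost cluster 7 and -0.45 in cluster 3, and this difference was not tested either. Cluster 17, which was read in W alone and enters no comparison, held Aqp1 at 1446 CPM and Slc4a4 at 330 CPM, near what its level of Kera, Lum and Dcn would bring.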

How the results depend on the processing

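No paired analysis was possible because each condition was 1 pooled library, so no replicate could be left out. For the summed epithelium, Aqp3 (-0.07) was -0.28 with TMM, -0.30 with DESeq2 size factors, -0.047 under a stricter cell filter (1000 genes or more, mitochondrial share no higher than 5%), -0.13 as a mean of per-cell CPM, 0.027 without mitochondrial, ribosomal protein and haemoglobin genes in the total, -0.0025 without clusters 8 and 11, -0.17 without cluster 5, -0.16 without cluster 7 and -0.038 without cluster 9. Under the same settings in turn Aqp5 (-0.81) was -1.02, -1.04, -0.80, -0.64, -0.71, -0.63, -0.75, -0.85 and -0.69, and it was -0.79 without doublet calls and -0.19 with clusters weighted by their UW share. Atp1b1 (0.48) was 0.26 with TMM, 0.24 with DESeq2, 0.66 in the stricter cells, 0.18 per cell, 0.61 without cluster 5, 0.60 without cluster 9 and -0.87 weighted. In cluster 0, Aqp1 (-0.52) was -0.37 with TMM, -0.34 with DESeq2, -0.46 per cell and -0.42 with the reduced total, and Slc4a4 (-0.50) was -0.36, -0.33 and -0.41 with TMM, DESeq2 and the reduced total. In cluster 10, Slc4a11 (-2.95) was -1.44 in the stricter cells, -2.05 per cell and 0.50 without the Car3-rich cells, and Atp1b1 (-2.02) was -0.68, -1.66 and 0.20. The settings without the Car3-rich cells and without cluster 9 were chosen after seeing the data. The number of combinations of member and cluster past 2-fold over the 12 clusters (5) was 11 with no CPM minimum. The difference in the share of cluster 3 cells with Slc4a11 (5.18 percentage points) was 2.25 at 2000 UMIs and 22.3 with no thinning. The log2 ratio of Slc4a11 between cells of cluster 10 with all 5 endothelial markers and those with fewer, both libraries together (5.70), was 4.20 with Col8a1 and Col8a2 alone and 2.48 without the Car3-rich cells. The cause of these shifts was not tested. TMM moved every log2 ratio by -0.22 in the summed epithelium, 0.14 in cluster 0, 0.11 in cluster 10, 0.13 in cluster 9 and -0.38 in cluster 7. Of 44 further values for single members, 23 moved by less than their counting interval, 21 by more, and 0 changed direction. Depth limits Atp1b1 and Slc4a11 in most epithelial clusters, where they stood at a few CPM.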
